A study of Mus musculus with 12 samples.

Results

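The comparison described here set 3T9MycER mouse fibroblasts that received both the ROCK inhibitor Y27632 and 4-hydroxytamoxifen (OHT) against cells that received solvent alone, and read the combined change beside the sum of the changes that each agent gave by itself. Its members were the 11024 genes, of 21611 with usable values, whose mean over the 4 libraries compared was at least 0.5 RPKM (reads scaled to gene length and library size). At that limit, Pag1 had a mean of 0.499 RPKM and was left out, and Mir695 had a mean of 0.5003 RPKM and was kept. The groups used were Y27 + OHT (Y27632 at 50 µM for 8 hours, with OHT), Y27 (the same inhibitor without OHT), OHT (solvent with OHT) and DMSO (solvent), with 2 libraries each, which is 8 of the 12 samples of the series. All groups carried the same MycER fusion, so that OHT was never given to cells without it and its other actions cannot be told apart from those of MycER. The methods give a range of OHT doses for the line but neither they nor the labels give the dose or the duration used for these libraries. The number of clones behind the line and whether 2 libraries of a group came from separate cultures are likewise not stated there, so that each p-value below measures only the spread between these libraries, which may be technical. The description of the series calls the cells quiescent and confluent, whereas the methods describe serum-starved subconfluent cultures, and the state of the cultures could not be settled.

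3T9 cells are immortal fibroblasts derived from mouse embryos. In MycER, the transcription factor Myc is fused to the hormone-binding domain of the estrogen receptor, which keeps the protein inactive until OHT binds. Myc, together with its partner Max, binds E-boxes (CACGTG) in promoters and is known to raise genes of ribosome production, nucleotide synthesis and cell growth. ROCK, the kinase that acts below the small GTPase RhoA, phosphorylates myosin light chain and its phosphatase and so maintains actin stress fibres and contractile tension. That tension is known to keep the co-activators YAP and TAZ in the nucleus, where they act through TEAD factors, and actin polymerisation releases the co-activators MRTF-A and MRTF-B, which act through SRF at CArG boxes. The series addressed how far Myc-driven transcription depends on YAP and on tension of the cytoskeleton.

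RNA-seq libraries held between 21857777 and 28878041 reads, as the RPKM values imply, and the 2 libraries of a group correlated across genes at 0.992 to 0.994 on the log2 scale. In the files, every value of 1 RPKM or more had lost its decimal sign, and these values were restored from whole read numbers as described under the methods. Among the longer genes with restored values, the maximum was 1.72 to 1.77 reads per base in every library, although library totals differed. Shorter features were left out of this maximum, among them Snora74a, which had the highest mean at 188 RPKM. Whether a limit at that depth flattened abundant genes (1028 tested genes averaged at least 20 RPKM) was not tested. Of 12 fibroblast markers 9 passed the 0.5 RPKM minimum, led by Vim at a mean of 59.0 RPKM, whereas of 12 macrophage markers 3 passed (the highest, Cd68, at 1.56 RPKM), and no marker of epithelium, endothelium, fat or skeletal muscle did. The summed macrophage markers were 2.95 to 3.07 RPKM with Y27 + OHT and 3.95 to 4.11 RPKM with DMSO, and the summed skeletal muscle markers 0.620 to 0.655 RPKM with Y27 + OHT and 1.02 to 1.46 RPKM with DMSO. With Y27 alone the macrophage sums were 3.15 to 3.43 RPKM and the muscle sums 0.339 to 0.708 RPKM. With OHT alone they were 3.25 to 4.1 RPKM and 0.898 to 1.47 RPKM. The highest muscle marker was Acta1, at a mean of 0.315 RPKM. The part of these markers in the results was not tested. Less RNA per cell and fewer cells of a type cannot be told apart in such bulk libraries.

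Combined treatment moved 5362 of the 11024 genes (48.6% at an adjusted p under 0.05 by limma), of which 2343 were higher (21.3%) and 3019 lower (27.4%) with Y27 + OHT than with DMSO. The median gene stood at -0.01 on the log2(RPKM + 1) scale, on which all changes are given and which understates the change of genes expressed at low levels. A change beyond 1 on this scale was called for 317 genes, 70 of them higher and 247 lower, so that large falls outnumbered large rises. Y27 alone moved 5196 genes (47.1%), 1677 higher (15.2%) and 3519 lower (31.9%), and OHT alone moved 3298 (29.9%), 2339 higher (21.2%) and 959 lower (8.7%). The 3 comparisons share the DMSO libraries, and their calls are therefore given side by side and not counted against each other. With median-ratio scaling of the libraries the combined calls were 2946 higher and 3089 lower, with quantile scaling 3287 higher and 2964 lower, and 2162 higher and 2127 lower without DMSO replicate 1, so that lower calls outnumbered higher ones with median-ratio scaling but not in the other 2 fits. With these scalings the split of the single effects shifted as well, to 2663 higher and 3234 lower or 3140 and 2918 for Y27, and to 1854 and 1917 or 2104 and 2249 for OHT. Without Y27 + OHT replicate 1 or without DMSO replicate 2, the number of genes higher after combined treatment fell to 1553 or 1415.

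**Figure D1:**
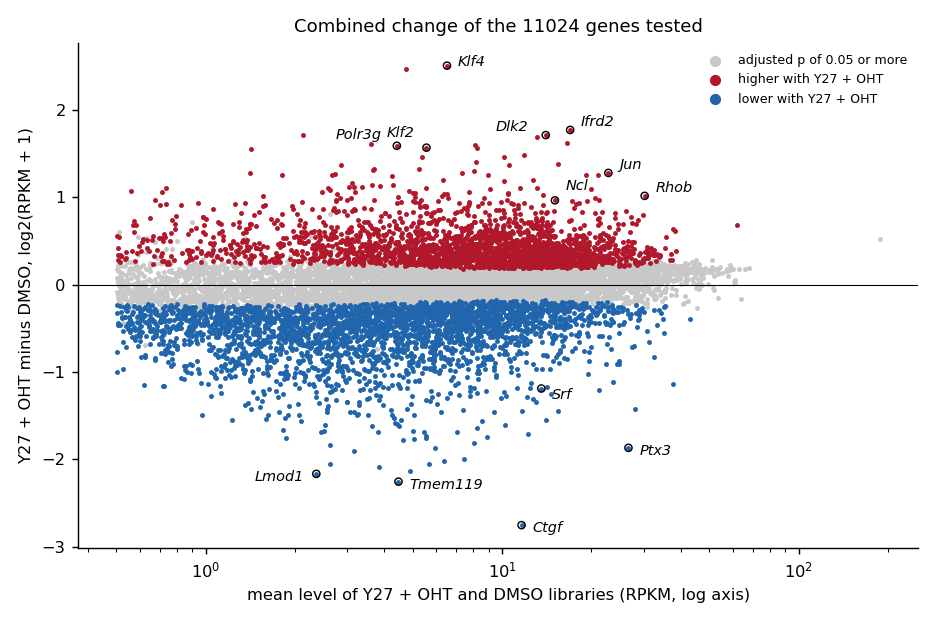
Change of each of the 11024 genes tested, as Y27 + OHT minus DMSO in log2(RPKM + 1), against the mean level of the 4 libraries in RPKM on a log axis. Red points were higher and blue points lower with Y27 + OHT at an adjusted p under 0.05 (2343 and 3019 genes), grey points were not called, and circled genes are described in the text, from Klf4 at 2.50 to Ctgf at -2.75.

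The largest rise on this scale was that of Klf4, a zinc-finger transcription factor of the Krüppel-like family. Klf4 had 12.5 and 11.03 RPKM with Y27 + OHT, 13.2 and 15.8 RPKM with Y27 alone, 0.663 and 0.603 RPKM with OHT alone and 1.399 and 1.10 RPKM with DMSO. By the group means, Y27 + OHT cells had 9.41-fold the level of DMSO cells, a change of 2.50 ± 0.11 (SE) with an adjusted p of 3.10e-08. Its relative Klf2 had 8.97 and 8.61 RPKM with Y27 + OHT, 8.59 and 9.86 RPKM with Y27 alone, 1.62 and 1.47 RPKM with OHT alone and 2.63 and 2.00 RPKM with DMSO, and the combined change was 1.57 ± 0.10. Jun, a subunit of the AP-1 factor, had 32.6 and 32.6 RPKM with Y27 + OHT, 35.7 and 38.0 RPKM with Y27 alone, 11.9 and 8.91 RPKM with OHT alone and 14.8 and 11.1 RPKM with DMSO. In these 3 genes every library with the inhibitor lay above every library without it, and OHT alone lay below DMSO for Klf4 and Klf2 and overlapped it for Jun. The combined changes of Klf2 and Jun had adjusted p-values of 4.04e-07 and 9.59e-06.

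A second set of large rises followed OHT. Ifrd2 had 26.1 and 27.4 RPKM with Y27 + OHT, 4.83 and 4.56 RPKM with Y27 alone, 27.4 and 25.9 RPKM with OHT alone and 7.32 and 6.96 RPKM with DMSO, with a combined change of 1.77 ± 0.07 (adjusted p = 2.57e-08). The combination overlapped OHT alone, from which it was not called different (adjusted p = 0.956). Polr3g, a subunit of RNA polymerase III, had 7.11 and 7.13 RPKM with Y27 + OHT, 1.33 and 1.24 RPKM with Y27 alone, 8.89 and 7.604 RPKM with OHT alone and 1.86 and 1.55 RPKM with DMSO. Hmga1, which encodes an architectural protein of chromatin, had 25.8 and 24.9 RPKM in Y27 + OHT cells, against 8.49 and 6.76 RPKM in DMSO cells, with changes of 0.06 for Y27 alone and 1.69 for OHT alone. Cluh, whose protein binds mRNAs of mitochondrial proteins, had 20.9 and 20.2 RPKM in Y27 + OHT cells, against 6.07 and 5.31 RPKM in DMSO cells, with 0.08 for Y27 alone and 1.34 for OHT alone. In these 4 genes the changes with Y27 alone ran from -0.52 to 0.08, whereas those with OHT alone ran from 1.34 to 1.77. Smpdl3b, a membrane-anchored phosphodiesterase, had 13.0 and 12.3 RPKM with Y27 + OHT, 1.26 and 0.982 RPKM with Y27 alone, 19.3 and 18.7 RPKM with OHT alone and 3.65 and 3.34 RPKM with DMSO, so that the combination lay between OHT alone and DMSO. The sialyltransferase gene St6galnac4 changed by 1.56 in combination, against 0.40 with Y27 and 1.82 with OHT.

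Some genes rose with either agent. Dlk2, which encodes a membrane protein related to Notch ligands, had 22.3 and 21.6 RPKM with Y27 + OHT, 16.6 and 18.1 RPKM with Y27 alone, 12.5 and 12.2 RPKM with OHT alone and 6.99 and 5.17 RPKM with DMSO, and the combination stood above each single treatment with a change of 1.71 ± 0.10. Smoc1, a secreted calcium-binding matrix protein, had 6.50 and 5.38 RPKM with Y27 + OHT, 2.43 and 3.01 RPKM with Y27 alone, 6.18 and 6.42 RPKM with OHT alone and 1.18 and 1.35 RPKM with DMSO, and here the combination overlapped OHT alone. Lsmem2, a membrane protein gene, had 3.95 and 3.65 RPKM with Y27 + OHT, 0.640 and 0.359 RPKM with Y27 alone, 2.24 and 2.39 RPKM with OHT alone and 0.523 and 0.402 RPKM with DMSO. It rose with OHT alone (1.18) and not with Y27 alone (0.03), and the combination lay above both (1.71). The remaining rise among the 12 largest was Mir1249, a microRNA locus of 98 bases, with a change of 2.47 that rested on 19 and 22 reads with Y27 + OHT, against 2 and 2 reads with DMSO.

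Of the 12 largest falls, all but that of Mir15b were in genes that the inhibitor lowered by itself. Ctgf, which encodes a matrix-associated growth regulator and is a standard target of YAP and TEAD, had 2.40 and 2.11 RPKM with Y27 + OHT, 2.23 and 2.69 RPKM with Y27 alone, 20.4 and 19.1 RPKM with OHT alone and 22.6 and 19.4 RPKM with DMSO. The combined change was -2.75 ± 0.10 (adjusted p = 1.13e-08), or 9.31-fold less by the group means. The libraries thus fell into a low pair of groups with the inhibitor and a high pair without it, and the departure of Ctgf from the sum of the single changes was -0.00 with a 95% interval of -0.30 to 0.29. Lmod1, leiomodin 1 of smooth muscle actin filaments, had 0.286 and 0.161 RPKM with Y27 + OHT, 0.197 and 0.365 RPKM with Y27 alone, 4.53 and 3.48 RPKM with OHT alone and 4.804 and 4.19 RPKM with DMSO. Rnd1, a small GTPase that opposes RhoA, had 0.849 and 0.840 RPKM with Y27 + OHT, 0.678 and 0.803 RPKM with Y27 alone, 6.66 and 4.995 RPKM with OHT alone and 7.19 and 6.52 RPKM with DMSO. Tmem119, a membrane protein known from osteoblasts and microglia, had 0.887 and 0.894 RPKM with Y27 + OHT, 0.991 and 0.870 RPKM with Y27 alone, 6.49 and 4.08 RPKM with OHT alone and 8.54 and 7.55 RPKM with DMSO, and in it OHT alone gave -0.55 (adjusted p = 0.0129). These 3 genes changed by -2.17, -2.09 and -2.26 in combination, and no library with the inhibitor reached the level of any library without it.

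Further falls of about that size were found for Fam46b (-2.14), a poly(A) polymerase gene, Tmem47 (-2.05), Prr5l (-2.05), which encodes a partner of the mTORC2 kinase complex, Glipr1 (-2.02), Adamts5 (-1.99), a protease of the matrix proteoglycan aggrecan, Ptx3 (-1.87), a secreted pentraxin of innate immunity, and Fam198b (-1.87). Ptx3 was the most abundant of them, with 11.5 and 10.3 RPKM in Y27 + OHT cells, against 45.6 and 39.2 RPKM in DMSO cells. It is among the genes of 20 RPKM and more, and whether a limit in reads per base reduced its change was not tested. In these 7 genes the change with Y27 alone lay between -2.13 and -1.75, and OHT alone gave changes between -0.34 and 0.05. Mir15b, a microRNA locus of 64 bases, was among the 12 largest falls with 3 and 0 reads in Y27 + OHT libraries, against 12 and 7 reads in DMSO libraries, and its change of -1.91 (-2.67 to -1.14 as a 95% interval) therefore rests on few reads. With Y27 alone Mir15b had 5 and 5 reads and a change of -0.51, which was not called.

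**Figure D2:**
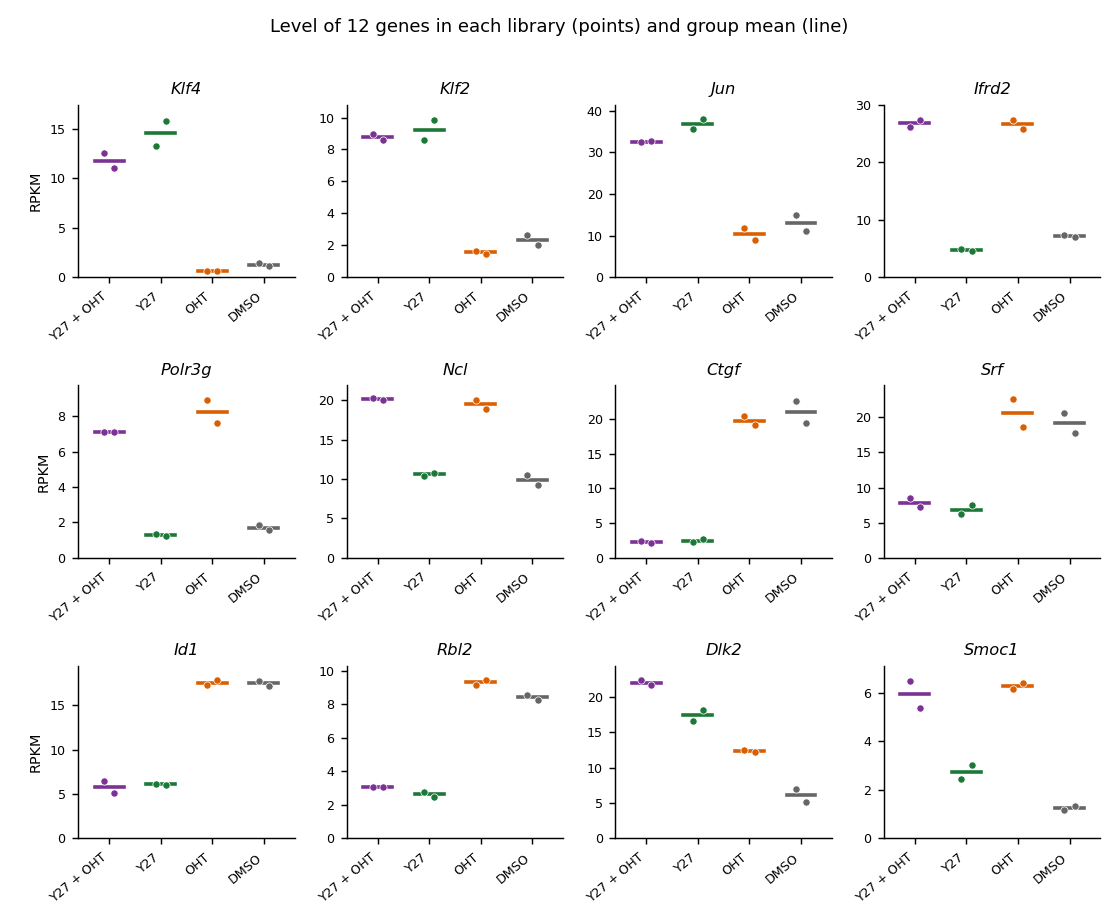
Level in RPKM of 12 genes, with a point for each of the 2 libraries of a group and a line at the group mean. Klf4, Klf2 and Jun were high wherever the inhibitor was present, Ifrd2, Polr3g and Ncl wherever OHT was present, and Ctgf, Srf, Id1 and Rbl2 were low wherever the inhibitor was present, whereas Dlk2 and Smoc1 were above DMSO in all treated groups.

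The 250 bases before the start of 4 genes are printed because they hold, next to genes that moved, the motifs through which Myc, SRF and TEAD factors are known to bind. The 4 genes were chosen after the values were seen, the sequences are those of RefSeq on GRCm38.p6, and capitals mark the match. Cluh (1.69 in combination), at chr11:74649254-74649503 on the plus strand, holds CACGTG with its first base at position -19 from the gene start. Srf (-1.19), at chr17:46556163-46556412 on the minus strand, holds CArG boxes that begin at -82 and -62. Cyr61 (-0.39), at chr3:145649986-145650235 on the minus strand, holds CATTCC, the reverse complement of the TEAD motif GGAATG, from -103. Lmod1 (-2.17), at chr1:135324563-135324812 on the plus strand, holds GGAATG from -130.
Cluh: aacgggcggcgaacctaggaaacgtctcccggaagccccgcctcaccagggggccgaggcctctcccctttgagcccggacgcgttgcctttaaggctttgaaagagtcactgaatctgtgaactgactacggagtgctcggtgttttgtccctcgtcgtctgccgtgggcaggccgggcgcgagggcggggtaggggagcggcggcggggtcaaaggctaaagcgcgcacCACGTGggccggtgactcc
Srf: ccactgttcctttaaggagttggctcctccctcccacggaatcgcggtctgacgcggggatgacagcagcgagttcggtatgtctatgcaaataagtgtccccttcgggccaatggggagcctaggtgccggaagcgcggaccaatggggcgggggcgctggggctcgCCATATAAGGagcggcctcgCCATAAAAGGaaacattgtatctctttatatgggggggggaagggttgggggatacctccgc
Cyr61: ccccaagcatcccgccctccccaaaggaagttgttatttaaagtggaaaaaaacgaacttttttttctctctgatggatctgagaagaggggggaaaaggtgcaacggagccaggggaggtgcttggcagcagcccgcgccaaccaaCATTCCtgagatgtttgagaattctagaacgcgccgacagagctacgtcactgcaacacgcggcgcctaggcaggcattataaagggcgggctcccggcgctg
Lmod1: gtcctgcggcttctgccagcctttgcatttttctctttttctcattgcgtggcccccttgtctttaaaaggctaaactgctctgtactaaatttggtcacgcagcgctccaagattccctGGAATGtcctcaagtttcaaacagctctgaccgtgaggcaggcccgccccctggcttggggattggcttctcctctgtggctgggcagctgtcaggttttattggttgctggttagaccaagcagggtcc

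The motifs were then counted on both strands in windows of 300 bases, 250 before and 50 after each gene start, which 8669 of the 11024 genes had, 435 of them through an older symbol. CACGTG was found in 251 of 1866 windows of genes that were higher with Y27 + OHT (13.5%) and in 204 of 2383 windows of genes that were lower (8.56%), against 10.6% of windows of all tested genes and 7.24% of all 27025 windows. Of the ribosome biogenesis genes described next, 12 of 54 windows held it (22.2%), and shares up to 35.7% (5 of 14 windows, circadian clock genes) were found in other lists. GGAATG was found in 10.1% of windows of the higher genes and 13.1% of windows of the lower genes, against 11.6% of windows of all tested genes and 14.6% of all windows. It was found in 7 of 18 windows of the YAP and TEAD targets (38.9%), in 9 of 18 windows of the YAP, TAZ, TEAD and Hippo kinase genes (50%) and in 12 of 34 windows of the SRF, MRTF and actin list (35.3%). The CArG box was found in 0.697% of windows of the higher genes and 1.89% of windows of the lower genes, against 1.38% of windows of all tested genes and 1.57% of all windows. It was found in 10 of 175 windows (5.71%) of genes that fell by more than 1 and in 7 of 34 windows (20.6%) of the SRF, MRTF and actin list. No motif contains another, no test was made on these shares, and a match describes letters and not a binding site.

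Genes of ribosome biogenesis, which make and process ribosomal RNA in the nucleolus, moved upward together under the combination. Of 63 tested members 55 were higher and none lower, with a median change of 0.54, against -0.01 over all genes. With Y27 alone, 0 were higher and 26 lower (median -0.20), and with OHT alone 61 were higher and 0 lower (median 0.61). Ncl, nucleolin, had 20.3 and 20.1 RPKM with Y27 + OHT, 10.4 and 10.8 RPKM with Y27 alone, 20.1 and 19.0 RPKM with OHT alone and 10.5 and 9.28 RPKM with DMSO, so that the combination lay close to OHT alone, from which it was not called different (adjusted p = 0.649). Rrp9, a processing factor bound to the U3 small nucleolar RNA, had 29.9 and 30.2 RPKM with Y27 + OHT, 7.65 and 7.003 RPKM with Y27 alone, 35.3 and 28.7 RPKM with OHT alone and 13.1 and 11.04 RPKM with DMSO. Rrp12, which serves in ribosome export, had 7.44 and 6.88 RPKM with Y27 + OHT, 1.08 and 1.03 RPKM with Y27 alone, 9.73 and 8.10 RPKM with OHT alone and 3.597 and 2.98 RPKM with DMSO. Both genes fell with the inhibitor alone (-0.64 and -1.06), yet in combination Rrp9 lay within the range of OHT alone and Rrp12 between OHT alone and DMSO. Dhx37, an RNA helicase, changed by 1.01 in combination, by -0.23 with Y27, which did not pass the test, and by 1.06 with OHT. The list departed from the sum of its single changes by a median of 0.16 (51 of 63 above 0, none called), against -0.04 over all genes. This median was 0.07 without DMSO replicate 1 and 0.08 without OHT replicate 2.

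For RNA polymerases I and III, 19 of 36 genes were higher and 5 lower (median 0.26), with 3 lower without Y27 + OHT replicate 1, 2 without Y27 + OHT replicate 2 and 1 without DMSO replicate 1. Beside Polr3g, the subunit gene Polr1b changed by 0.85 and Taf1c, of the polymerase I selectivity factor, by 0.78. Polr1b had 14.7 and 14.0 RPKM with Y27 + OHT, 3.605 and 3.56 RPKM with Y27 alone, 18.7 and 16.1 RPKM with OHT alone and 8.09 and 6.99 RPKM with DMSO. Polr1e, of the same enzyme, had 4.48 and 4.43 RPKM with Y27 + OHT, 1.04 and 0.878 RPKM with Y27 alone, 6.07 and 6.16 RPKM with OHT alone and 2.70 and 2.61 RPKM with DMSO. Both lay lowest with Y27 alone and highest with OHT alone, and the combination lay between OHT alone and DMSO.

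Nucleotide and one-carbon synthesis was the list in which the agents opposed each other most in the medians of the 30 lists examined, with -0.48 for Y27 and 0.43 for OHT. In combination 14 of 34 genes were higher and 4 lower (median 0.17), with Y27 1 was higher and 27 lower, and with OHT 24 were higher and 1 lower. Ppat, the first enzyme of purine synthesis, had 14.6 and 15.2 RPKM with Y27 + OHT, 5.52 and 6.18 RPKM with Y27 alone, 17.6 and 16.8 RPKM with OHT alone and 8.67 and 7.58 RPKM with DMSO. Umps, which makes uridine monophosphate, changed by 0.75, Pfas, a later purine enzyme, by 0.72, and Mthfd1l, a mitochondrial folate enzyme, by 0.89, each of them lowered by Y27 alone (-0.36, -0.77 and -0.69) and raised by OHT alone (0.79, 1.12 and 1.45). The list's median departure from the sum was 0.22, with 26 of 34 genes above 0, and 0.12 without DMSO replicate 1 or OHT replicate 2. The combined median was 0.08 without DMSO replicate 2. Its members Mthfd1 and Ctps are described with the departures.

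Among polyamine genes 3 of 10 were higher and 3 lower (30% each), close to the shares over all genes (21.3% and 27.4%). Sat1, the enzyme that acetylates polyamines for breakdown, had 17.4 and 18.5 RPKM with Y27 + OHT, 24.4 and 21.3 RPKM with Y27 alone, 8.69 and 9.53 RPKM with OHT alone and 12.6 and 11.1 RPKM with DMSO. Amd1, the S-adenosylmethionine decarboxylase gene, had 25.5 and 26.2 RPKM with Y27 + OHT, 15.1 and 16.1 RPKM with Y27 alone, 27.6 and 25.9 RPKM with OHT alone and 18.6 and 17.1 RPKM with DMSO. Sat1 thus was high where the inhibitor was present and Amd1 where OHT was present. Smox, spermine oxidase, and Azin1, an antizyme inhibitor, fell by 0.58 and 0.50. Odc1, ornithine decarboxylase and a familiar Myc target, had 25.6 and 26.7 RPKM with Y27 + OHT, 22.3 and 22.3 RPKM with Y27 alone, 34.0 and 28.1 RPKM with OHT alone and 29.3 and 25.5 RPKM with DMSO, and its combined change of -0.06 did not pass the test (adjusted p = 0.632). Srm, spermidine synthase, gave 0.27 (adjusted p = 0.0556), and Oaz2, an antizyme gene, -0.46.

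Of 28 initiation and elongation factors 14 were higher and none lower (median 0.24), or 7 without Y27 + OHT replicate 2 or DMSO replicate 2, among them Eif4ebp2, a repressor of the cap-binding factor (0.83 ± 0.13), Eef1d (0.63), Eif3b (0.57), and Eif3d (0.26). The cap-binding factor gene Eif4e itself had 18.02 and 18.8 RPKM with Y27 + OHT, 11.3 and 10.5 RPKM with Y27 alone, 22.3 and 19.2 RPKM with OHT alone and 13.7 and 12.9 RPKM with DMSO, and its change was 0.44. Eif2b3 gave 0.22 in combination, which did not pass, beside -0.68 with Y27 and 0.56 with OHT. In the list of 24 chaperones 12 were higher and none lower (1 was lower with quantile scaling of the libraries). Without Y27 + OHT replicate 2, 5 were higher, and without DMSO replicate 2, 3. The higher genes included mitochondrial Hspd1 (0.41) and Hspa9 (0.36), the cytosolic Hspa4 (0.40), Fkbp4 (0.40) and Dnajc2 (0.36), whereas the mitochondrial Trap1 gave -0.16 and was not called. Of 20 aminoacyl-tRNA synthetases 5 were higher and 5 lower, close to the shares over all genes (21.3% and 27.4%), with 1 higher without DMSO replicate 2 and 2 higher without either Y27 + OHT replicate. Farsa and Hars gave 0.43 and 0.32, Dars and Aars gave -0.71 and -0.53, and Wars, at -0.12, was not called.

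Among genes of DNA replication and the G1/S transition, 18 of 49 were higher and 6 lower (median 0.12). These shares were 36.7% and 12.2%, against 21.3% and 27.4% over all genes. Without DMSO replicate 2, 9 were higher (median 0.06), and without Y27 + OHT replicate 1, 11. OHT alone raised 33 and lowered none, and Y27 alone raised 1 and lowered 21. Fen1, the flap endonuclease, had 9.95 and 9.41 RPKM with Y27 + OHT, 6.40 and 6.25 RPKM with Y27 alone, 9.79 and 8.82 RPKM with OHT alone and 6.43 and 5.17 RPKM with DMSO, and the combination overlapped OHT alone. Uhrf1, which maintains DNA methylation behind the fork, had 3.84 and 3.04 RPKM with Y27 + OHT, 1.57 and 1.53 RPKM with Y27 alone, 6.30 and 4.74 RPKM with OHT alone and 2.22 and 1.86 RPKM with DMSO. Pold1, a DNA polymerase subunit, changed by 0.58, and Dbf4, the activator of the kinase Cdc7, by 0.50. Rpa3, of the single-strand binding complex, moved the other way, with 3.07 and 3.48 RPKM with Y27 + OHT, 3.08 and 2.96 RPKM with Y27 alone, 6.65 and 6.57 RPKM with OHT alone and 6.97 and 7.15 RPKM with DMSO, and every library with the inhibitor lay below every library without it. Gins2, of the replicative helicase, gave -0.21.

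The list of G1 cyclins, kinases and inhibitors held 4 higher and 3 lower genes of 18 (22.2% and 16.7%, against 21.3% and 27.4% over all genes). Rbl2, the retinoblastoma relative p130 of quiescent cells, had 3.04 and 3.06 RPKM with Y27 + OHT, 2.77 and 2.50 RPKM with Y27 alone, 9.18 and 9.43 RPKM with OHT alone and 8.57 and 8.28 RPKM with DMSO, a change of -1.22 ± 0.08. Its fall came with the inhibitor (-1.38 with Y27 alone), and OHT alone gave no called change (0.13, adjusted p = 0.245). Cdkn2c, the inhibitor p18, had 2.60 and 2.69 RPKM with Y27 + OHT, 4.48 and 4.94 RPKM with Y27 alone, 5.05 and 4.87 RPKM with OHT alone and 6.95 and 6.22 RPKM with DMSO, the lowest values with both agents. Tfdp1 and E2f4, partners in E2F complexes, changed by 0.53 and 0.50. Ccne1, cyclin E1, had 1.85 and 1.99 RPKM with Y27 + OHT, 0.374 and 0.504 RPKM with Y27 alone, 4.73 and 3.66 RPKM with OHT alone and 1.64 and 1.36 RPKM with DMSO, and the combined change of 0.23 did not pass the test. Cdk6 had 4.54 and 3.97 RPKM with Y27 + OHT, 1.54 and 1.54 RPKM with Y27 alone, 6.34 and 5.75 RPKM with OHT alone and 3.90 and 3.03 RPKM with DMSO. In both genes Y27 alone gave a fall (-0.80 and -0.81) and OHT alone a rise (1.05 and 0.66), and neither combined change was called. Ccnd1, cyclin D1, gave 0.08, Tfdp2 0.17, Cdkn1a (p21) -0.17 and Cdkn1b (p27) -0.17, none of them called.

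Of genes of mitosis and the G2/M transition, 7 of 40 were higher and 11 lower, close to the shares over all genes (21.3% and 27.4%). The actin-binding protein of the cleavage furrow, Anln, had 2.71 and 2.92 RPKM with Y27 + OHT, 3.30 and 3.43 RPKM with Y27 alone, 7.17 and 4.30 RPKM with OHT alone and 8.79 and 8.49 RPKM with DMSO. Top2a, topoisomerase II, had 3.59 and 3.62 RPKM with Y27 + OHT, 3.28 and 3.18 RPKM with Y27 alone, 6.95 and 5.77 RPKM with OHT alone and 6.84 and 5.25 RPKM with DMSO. The cytokinesis regulator Ect2 changed by -0.49, so that these 3 genes fell. Cdc25b, a phosphatase that activates mitotic kinases, had 4.18 and 3.89 RPKM with Y27 + OHT, 3.05 and 3.51 RPKM with Y27 alone, 1.84 and 2.04 RPKM with OHT alone and 1.87 and 1.75 RPKM with DMSO, and rose by 0.84, and Cks2, a small kinase subunit, rose by 0.60. The list median of -0.07 changed sign with quantile scaling (0.11) and without DMSO replicate 1 (0.06, with 3 lower), and 7 and 5 were lower without Y27 + OHT replicates 1 and 2, so that no direction is given for the list.

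Targets of YAP and TEAD were mostly lower, as 14 of 25 were lower and 4 higher, with a median of -0.35. Y27 alone gave 15 lower and 5 higher (median -0.35), and OHT alone gave 1 of each. After Ctgf, the largest fall was that of Nt5e, the ecto-enzyme CD73, with 3.31 and 3.36 RPKM with Y27 + OHT, 2.72 and 3.48 RPKM with Y27 alone, 11.02 and 8.84 RPKM with OHT alone and 9.81 and 9.47 RPKM with DMSO. Sdpr, a coat protein of caveolae, had 14.0 and 15.2 RPKM in Y27 + OHT cells, against 33.2 and 32.2 RPKM in DMSO cells. Nuak2, a kinase related to AMPK, had 5.06 and 4.83 RPKM in Y27 + OHT cells, against 11.9 and 11.3 RPKM in DMSO cells. These falls of -1.29, -1.11 and -1.08 stood beside -1.38, -1.03 and -1.14 with Y27 alone and no called change with OHT alone. Cyr61, a matrix protein related to Ctgf, had 36.2 and 37.8 RPKM with Y27 + OHT, 35.2 and 36.4 RPKM with Y27 alone, 53.3 and 44.2 RPKM with OHT alone and 49.7 and 48.0 RPKM with DMSO, a smaller change of -0.39 ± 0.11 (adjusted p = 0.00935). Its call was lost without Y27 + OHT replicate 1 (-0.36) or DMSO replicate 1 (-0.37), and the gene is among those of 20 RPKM and more. Fjx1 changed by -0.36. Wwc1 (Kibra), an upstream Hippo component that is itself induced by YAP, had 6.97 and 5.27 RPKM with Y27 + OHT, 1.61 and 1.72 RPKM with Y27 alone, 10.3 and 9.92 RPKM with OHT alone and 6.48 and 5.49 RPKM with DMSO, so that its combined level overlapped DMSO (0.02) although Y27 alone gave -1.38. Ankrd1, another standard target, did not reach the 0.5 RPKM minimum.

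Of the YAP, TAZ, TEAD and Hippo kinase genes themselves, 3 of 23 were higher and 8 lower (13% and 34.8%, against 21.3% and 27.4% over all genes). Yap1 had 10.3 and 9.98 RPKM with Y27 + OHT, 9.16 and 9.80 RPKM with Y27 alone, 10.1 and 9.70 RPKM with OHT alone and 8.59 and 8.14 RPKM with DMSO, a rise of 0.25 ± 0.07 (adjusted p = 0.0113). The call was lost without Y27 + OHT replicate 1 (0.23) or DMSO replicate 2 (0.22). Wwtr1, which encodes TAZ, had 17.7 and 17.7 RPKM with Y27 + OHT, 21.9 and 23.7 RPKM with Y27 alone, 18.7 and 17.6 RPKM with OHT alone and 18.7 and 17.4 RPKM with DMSO, with no called change in combination (-0.03) and a rise of 0.32 with Y27 alone. Tead4 had 1.58 and 1.12 RPKM with Y27 + OHT, 0.897 and 1.19 RPKM with Y27 alone, 4.54 and 4.72 RPKM with OHT alone and 4.31 and 4.02 RPKM with DMSO, a change of -1.14 ± 0.11. The TEAD genes Tead1 and Tead3 and the cofactor gene Vgll3 changed by -0.60, -0.59 and -0.68, whereas Vgll4 gave -0.03 and was not called.

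The SRF, MRTF and actin cytoskeleton list held 21 lower genes of 40 and none higher (1 was higher with median-ratio or quantile scaling), with a median of -0.25. Without DMSO replicate 1, 13 were lower, and with quantile scaling 32. Srf had 8.55 and 7.19 RPKM with Y27 + OHT, 6.20 and 7.45 RPKM with Y27 alone, 22.5 and 18.6 RPKM with OHT alone and 20.6 and 17.8 RPKM with DMSO, a change of -1.19 ± 0.11 (adjusted p = 5.92e-06). Fhl2, a cofactor of nuclear receptors and SRF, had 8.16 and 8.25 RPKM with Y27 + OHT, 9.46 and 9.52 RPKM with Y27 alone, 21.9 and 18.7 RPKM with OHT alone and 22.4 and 19.7 RPKM with DMSO. In both genes the libraries with OHT alone overlapped the DMSO libraries and those with the inhibitor lay below all of them. Myl9, the light chain that ROCK signalling regulates, had 23.9 and 22.5 RPKM with Y27 + OHT, 23.4 and 25.4 RPKM with Y27 alone, 58.1 and 48.0 RPKM with OHT alone and 53.7 and 50.8 RPKM with DMSO. Acta2, smooth muscle actin, had 15.3 and 15.1 RPKM with Y27 + OHT, 14.7 and 15.2 RPKM with Y27 alone, 33.8 and 28.2 RPKM with OHT alone and 30.8 and 28.1 RPKM with DMSO. These genes showed the same arrangement, with combined changes of -1.14 and -0.91. Csrp1, a LIM protein, had 23.4 and 23.8 RPKM with Y27 + OHT, 30.03 and 30.5 RPKM with Y27 alone, 35.1 and 30.1 RPKM with OHT alone and 35.1 and 32.1 RPKM with DMSO, and the combination lay lowest (-0.49). Myl12b, another light chain, gave -0.21, which was not called. Actb, cytoplasmic actin, had 56.3 and 66.3 RPKM with Y27 + OHT, 66.0 and 61.5 RPKM with Y27 alone, 68.4 and 56.8 RPKM with OHT alone and 62.0 and 58.6 RPKM with DMSO, with groups that overlapped and a change of 0.02 that turned to -0.11 and was called with quantile scaling. Vim, vimentin, gave 0.10, likewise not called except with quantile scaling (-0.06). Myl9, Acta2, Csrp1, Actb and Vim are among the genes of 20 RPKM and more. For Actb and Vim, the library with fewer reads had the higher value in every group. Whether a limit in reads per base hid or reduced changes of these genes was not tested. The lack of a call for Actb and Vim in the main fit therefore does not show equal levels.

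In the ROCK pathway 8 of 30 genes were higher and 8 lower, close to the shares over all genes (21.3% and 27.4%), and without Y27 + OHT replicate 2 there were 5 of each. Without DMSO replicate 1, 4 were lower, and without DMSO replicate 2, 5 were higher. Rhob, a stress-inducible relative of RhoA, had 41.0 and 40.5 RPKM with Y27 + OHT, 44.6 and 44.1 RPKM with Y27 alone, 20.2 and 16.1 RPKM with OHT alone and 21.2 and 18.3 RPKM with DMSO. Ezr, ezrin, which ties actin to the membrane and is phosphorylated below ROCK, had 27.1 and 27.7 RPKM with Y27 + OHT, 25.0 and 24.5 RPKM with Y27 alone, 13.0 and 12.04 RPKM with OHT alone and 12.3 and 9.72 RPKM with DMSO. Both rose, by 1.01 and 1.25, and OHT alone overlapped DMSO for Rhob and gave 0.18, not called, for Ezr. Rock2, a target of the inhibitor, had 6.50 and 6.30 RPKM with Y27 + OHT, 6.64 and 6.41 RPKM with Y27 alone, 9.79 and 9.27 RPKM with OHT alone and 9.85 and 9.005 RPKM with DMSO, a change of -0.49. Rock1 had 7.48 and 6.53 RPKM in Y27 + OHT cells, against 8.84 and 7.99 RPKM in DMSO cells, a small change of -0.24 whose call was lost without Y27 + OHT replicate 2 (-0.15) or without DMSO replicate 1 (-0.17). Ppp1r12b, a myosin phosphatase subunit, changed by -0.73, and the kinase gene Pkn2 by 0.25. Thus Rhob and Ezr were higher and Rnd1, Rock2 and Ppp1r12b lower, each with the sign that Y27 alone gave.

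Focal adhesion and integrin genes were lower in 12 of 26 cases and higher in 2 (median -0.18). Cav2, caveolin 2, had 6.78 and 7.09 RPKM with Y27 + OHT, 8.55 and 9.37 RPKM with Y27 alone, 15.5 and 14.9 RPKM with OHT alone and 20.0 and 18.2 RPKM with DMSO, with the lowest values under both agents. Itga1, the collagen-binding integrin subunit, had 5.62 and 4.99 RPKM in Y27 + OHT cells, against 14.8 and 14.1 RPKM in DMSO cells. Itga3 and Itga8 changed by -1.02 and -0.97, and Itga11 by -0.29, whereas Pdgfrb gave 0.16 and was not called. In the extracellular matrix list 7 of 41 were higher (1 without Y27 + OHT replicate 2, 2 without DMSO replicate 2 and 3 without Y27 + OHT replicate 1) and 8 lower, including, beside Adamts5, the proteoglycan genes Prelp (-0.78) and Omd (-0.74) and the protease inhibitor gene Timp1 (-0.70) as falls and Timp3 (0.21) as a rise. Adamts1 gave -0.02 and was not called. The matrix list's shares of higher and lower genes, 17.1% and 19.5%, lay under the 21.3% and 27.4% over all genes.

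Genes of TGF-beta and BMP signalling were lower in 9 of 18 cases (5 without Y27 + OHT replicate 2) and higher in 3 (1 without DMSO replicate 2 and 5 without either OHT replicate). Id1, an inhibitor of basic helix-loop-helix factors and a standard BMP target, had 6.44 and 5.17 RPKM with Y27 + OHT, 6.13 and 6.04 RPKM with Y27 alone, 17.3 and 17.9 RPKM with OHT alone and 17.8 and 17.2 RPKM with DMSO. Its relative Id3 had 15.8 and 17.4 RPKM in Y27 + OHT cells, against 31.7 and 32.3 RPKM in DMSO cells. Smad6, a feedback inhibitor of BMP signalling, had 5.75 and 5.47 RPKM in Y27 + OHT cells, against 15.8 and 14.3 RPKM in DMSO cells. These 3 genes changed by -1.45, -0.90 and -1.28, close to the -1.38, -0.81 and -1.18 of Y27 alone. Tgfb1, a ligand of the pathway, had 2.14 and 1.82 RPKM with Y27 + OHT, 2.08 and 3.00 RPKM with Y27 alone, 0.562 and 0.314 RPKM with OHT alone and 0.821 and 0.861 RPKM with DMSO, a rise of 0.69 ± 0.13. Smad7 and Tgfb3 changed by -0.39 and -0.44, in both cases with no called change from either agent alone (-0.09 and -0.11 with Y27, 0.01 and 0.10 with OHT), and the departures from the sum, -0.32 and -0.43, were not called.

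Immediate early genes, which respond within minutes to serum and stress, were higher in 14 of 26 cases and lower in 6, with a median of 0.32. Y27 alone raised 13 and lowered 6 (median 0.32), and OHT alone raised 1 and lowered 11 (median -0.33). The median departure from the sum was 0.24, with 21 of 26 genes above 0 and 1, Egr1, called, and this median was 0.08 without OHT replicate 2 and 0.09 without DMSO replicate 1. The combined median was 0.48 without DMSO replicate 1. Klf4, Klf2 and Jun, described above, belong to this list. Dusp5, a phosphatase of ERK kinases, fell (-1.39), with 0.977 and 0.981 RPKM with Y27 + OHT, 0.753 and 0.889 RPKM with Y27 alone, 2.80 and 3.30 RPKM with OHT alone and 4.40 and 3.95 RPKM with DMSO. Egr3, a zinc-finger factor, had 1.88 and 2.05 RPKM with Y27 + OHT, 1.05 and 1.31 RPKM with Y27 alone, 0.679 and 0.314 RPKM with OHT alone and 1.03 and 0.667 RPKM with DMSO, and its departure of 0.76 was not called (adjusted p = 0.262).

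NF-kB and chemokine genes were lower in 11 of 22 cases and higher in 3 (median -0.22), with 6 lower without DMSO replicate 1 and a median of -0.08 with quantile scaling. Csf1, the macrophage growth factor, had 8.28 and 7.34 RPKM with Y27 + OHT, 6.64 and 7.76 RPKM with Y27 alone, 24.8 and 22.2 RPKM with OHT alone and 24.5 and 21.6 RPKM with DMSO. Ccl2, a chemokine that attracts monocytes, had 6.67 and 6.18 RPKM in Y27 + OHT cells, against 18.5 and 13.5 RPKM in DMSO cells. These genes fell with the inhibitor (-1.55 and -1.14 with Y27 alone) and not with OHT (0.03 and -0.13). Tnfaip2, a gene induced by tumour necrosis factor, had 2.27 and 1.71 RPKM with Y27 + OHT, 2.78 and 2.79 RPKM with Y27 alone, 5.33 and 4.07 RPKM with OHT alone and 9.89 and 8.32 RPKM with DMSO, with falls under each agent and the lowest values under both. Il1rl1, the receptor for interleukin 33, changed by -0.82, and Ptgs2, cyclooxygenase 2, gave 0.05 and was not called. Interferon-responsive genes were lower in 13 of 18 cases and higher in 2 (median -0.46), at low levels. Without DMSO replicate 1, 8 were lower, and the median with quantile scaling was -0.29. Ddx58, the RNA sensor RIG-I, had 1.82 and 1.59 RPKM with Y27 + OHT, 2.72 and 3.04 RPKM with Y27 alone, 2.48 and 3.08 RPKM with OHT alone and 4.42 and 4.22 RPKM with DMSO, and it fell with each agent (-0.46 with Y27 and -0.50 with OHT). Trim21, an antibody receptor inside the cell, had 0.989 and 0.7999 RPKM in Y27 + OHT cells, against 2.62 and 3.11 RPKM in DMSO cells. The GTPase gene Igtp had 0.0186 and 0.112 RPKM with Y27 + OHT, 0.271 and 0.264 RPKM with Y27 alone, 0.395 and 0.787 RPKM with OHT alone and 1.42 and 1.33 RPKM with DMSO. Ifit1 changed by -0.73, and Isg15 gave -0.02, not called. The macrophage markers, whose summed level was lower with Y27 + OHT as stated above, stayed under 5 RPKM in sum, and their part in these falls was not tested.

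Cholesterol and fatty acid synthesis rose in 24 of 29 genes and fell in 2, with a median of 0.43. Without DMSO replicate 2, 12 were higher. Y27 alone raised 20 and lowered 3, and OHT alone raised 9 and lowered 0. Fasn, fatty acid synthase, had 33.6 and 33.9 RPKM with Y27 + OHT, 25.0 and 26.8 RPKM with Y27 alone, 32.7 and 26.4 RPKM with OHT alone and 19.0 and 17.7 RPKM with DMSO. Lss, lanosterol synthase, had 14.7 and 13.8 RPKM with Y27 + OHT, 13.0 and 12.2 RPKM with Y27 alone, 13.4 and 10.2 RPKM with OHT alone and 8.41 and 7.08 RPKM with DMSO. Both rose with each agent, by 0.47 and 0.64 with Y27 and by 0.65 and 0.54 with OHT. Hsd17b7, a later enzyme of the sterol pathway, had 9.44 and 7.77 RPKM with Y27 + OHT, 9.89 and 11.02 RPKM with Y27 alone, 5.69 and 4.70 RPKM with OHT alone and 5.37 and 4.33 RPKM with DMSO. Dhcr7, the last enzyme of the pathway, changed by 0.56, and Tm7sf2, a sterol reductase gene, fell by 0.71. The median departure of this list was -0.18 and 2 of 29 genes lay above 0, with no single gene called, against 4407 of 11024 above 0 over all genes. That median ran from -0.34 without OHT replicate 2 to -0.04 without OHT replicate 1, with -0.28 without DMSO replicate 1, -0.08 without DMSO replicate 2 and -0.07 with quantile scaling. In glycolysis and glucose uptake 8 of 23 were higher (4 without Y27 + OHT replicate 2 and 3 without DMSO replicate 2) and 4 lower. In the main fit the glycolysis list's shares were 34.8% higher and 17.4% lower, against 21.3% and 27.4% over all genes. The lactate carrier gene Slc16a1 had 16.9 and 17.5 RPKM with Y27 + OHT, 6.88 and 7.54 RPKM with Y27 alone, 21.98 and 18.7 RPKM with OHT alone and 11.03 and 9.03 RPKM with DMSO, and rose by 0.73. Pdk1 and Pdk3, kinases of pyruvate dehydrogenase, changed by -0.55 and -0.85, Pfkm, muscle phosphofructokinase, by -0.60 and Pfkfb3 by 0.33, whereas Eno2 gave 0.12 and was not called.

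**Figure D3:**
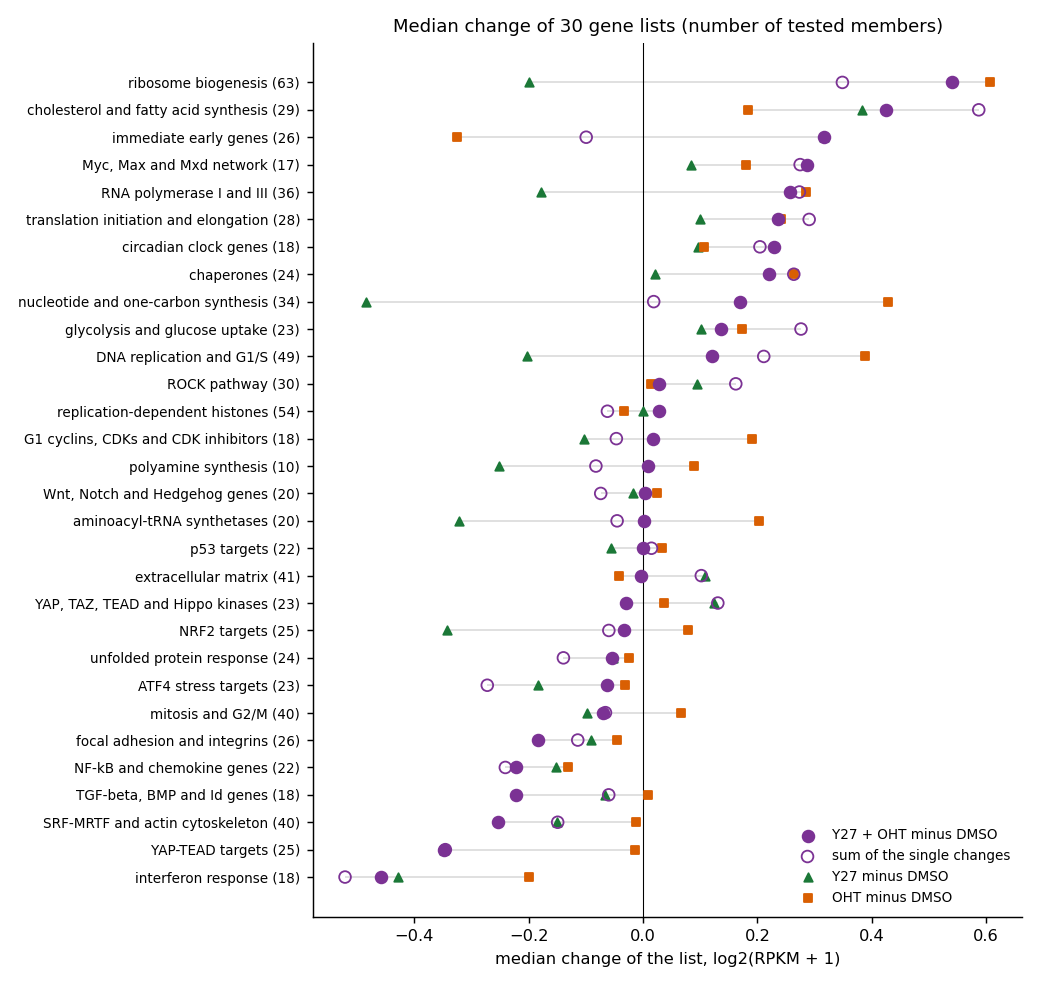
Median change of 30 gene lists on the log2(RPKM + 1) scale, ordered by the combined change, with the number of tested members in parentheses. Filled circles stand for Y27 + OHT minus DMSO, open circles for the sum of the single changes, triangles for Y27 and squares for OHT minus DMSO, all with the same DMSO libraries, and ribosome biogenesis (0.54) and the interferon response (-0.46) mark the ends.

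The Myc gene itself was lower with the combination. It had 8.60 and 6.67 RPKM with Y27 + OHT, 11.8 and 12.7 RPKM with Y27 alone, 5.68 and 5.005 RPKM with OHT alone and 10.6 and 10.2 RPKM with DMSO, a change of -0.41 ± 0.10 (adjusted p = 0.00497), beside -0.85 with OHT alone and 0.21 with Y27 alone, which did not pass the test. The call was lost without Y27 + OHT replicate 2 (-0.25). Whether reads of the MycER fusion were counted into this value is unknown.

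The departure of the combination from the sum of the single changes was called for 14 genes (0.127% of those tested), 13 above (0.118%) and 1 below (0.00907%). At an unadjusted p under 0.05 there were 761 such genes. The median departure was -0.04 and the median half-width of its 95% interval 0.28, and for 9008 genes (81.7%) the interval lay within 0.5 of no departure on either side. Without DMSO replicate 1 no gene was called (794 at an unadjusted p under 0.05), where the 14 departures ran from -1.02 for Mir421 to 2.01 for Mir875 with the same signs and adjusted p-values of 0.0666 to 0.257. Leaving out other libraries gave between 7 and 42 calls, and a pseudocount of 0.1 gave 29.

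Genes of folate and nucleotide metabolism were among the 8 called genes that are no microRNA or small nucleolar RNA. Mthfd1, the cytosolic enzyme that interconverts the carbon units of folate, had 12.5 and 11.98 RPKM with Y27 + OHT, 2.75 and 2.93 RPKM with Y27 alone, 17.2 and 15.6 RPKM with OHT alone and 8.46 and 7.94 RPKM with DMSO. The inhibitor changed it by -1.26 and OHT by 0.92, the sum of which was -0.34, whereas the combination gave 0.53, a departure of 0.87 ± 0.11 (adjusted p = 0.0112, 0.0666 without DMSO replicate 1). Ctps, CTP synthase, had 16.8 and 17.2 RPKM with Y27 + OHT, 5.90 and 6.74 RPKM with Y27 alone, 27.6 and 24.8 RPKM with OHT alone and 20.3 and 17.9 RPKM with DMSO, and departed by 0.86 ± 0.12 (adjusted p = 0.0242, 0.0866 without DMSO replicate 1). Dctd, deoxycytidylate deaminase, had 6.15 and 6.69 RPKM with Y27 + OHT, 1.13 and 0.888 RPKM with Y27 alone, 14.0 and 12.9 RPKM with OHT alone and 6.18 and 5.78 RPKM with DMSO, and departed by 0.84 ± 0.13 (adjusted p = 0.0279, 0.146 without DMSO replicate 1). In all 3 genes the Y27 libraries were the lowest and the OHT libraries the highest. The combination lay above DMSO for Mthfd1, overlapped it for Dctd and lay below it for Ctps.

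A like arrangement was found for Slc5a6, the multivitamin transporter that carries biotin, with 6.65 and 6.20 RPKM with Y27 + OHT, 1.14 and 1.35 RPKM with Y27 alone, 10.97 and 10.2 RPKM with OHT alone and 5.16 and 4.69 RPKM with DMSO. Its departure was 0.76 ± 0.12 (adjusted p = 0.0387, 0.257 without DMSO replicate 1). Rasl11a, a small GTPase of the Ras family, had 6.18 and 6.65 RPKM with Y27 + OHT, 1.403 and 1.74 RPKM with Y27 alone, 11.3 and 10.4 RPKM with OHT alone and 7.42 and 7.41 RPKM with DMSO, and departed by 1.04 ± 0.12 (adjusted p = 0.0105, 0.0666 without DMSO replicate 1). Sdf2l1, a chaperone component of the endoplasmic reticulum, had 7.84 and 8.22 RPKM with Y27 + OHT, 2.89 and 3.78 RPKM with Y27 alone, 14.1 and 12.9 RPKM with OHT alone and 11.9 and 11.3 RPKM with DMSO, and departed by 0.86 ± 0.14 (adjusted p = 0.0349, 0.146 without DMSO replicate 1). In all of these genes the inhibitor alone gave the lowest values and OHT alone the highest.

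Egr1 and Ackr4 were arranged differently. Egr1, a zinc-finger immediate early gene, had 2.95 and 3.02 RPKM with Y27 + OHT, 1.86 and 2.27 RPKM with Y27 alone, 1.83 and 1.65 RPKM with OHT alone and 3.78 and 3.19 RPKM with DMSO. Each agent alone lowered it (-0.55 with Y27 and -0.71 with OHT), and the combination gave -0.17, which did not pass the test. The departure was 1.09 ± 0.14 (adjusted p = 0.0126, 0.0866 without DMSO replicate 1, and 0.209 with no minimum level). Ackr4, a scavenging chemokine receptor, had 0.335 and 0.316 RPKM with Y27 + OHT, 0.460 and 0.477 RPKM with Y27 alone, 1.02 and 0.951 RPKM with OHT alone and 3.15 and 2.60 RPKM with DMSO. Each agent lowered Ackr4 and the combination stood near 0 RPKM, so that on the log2(RPKM + 1) scale it could not fall by the whole sum of -2.36. With a pseudocount of 0.1 its departure of 1.03 was not called (adjusted p = 0.213).

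The other 6 called departures came from microRNA and small nucleolar RNA loci, of which 240 were tested. Snord52, a small nucleolar RNA, had 14.7 and 18.4 RPKM with Y27 + OHT, 10.1 and 9.05 RPKM with Y27 alone, 15.7 and 16.4 RPKM with OHT alone and 17.7 and 17.4 RPKM with DMSO, on 13 to 29 reads in a library. Mirlet7a-1, a locus of the let-7 family, had 7.202 and 7.71 RPKM with Y27 + OHT, 4.87 and 5.68 RPKM with Y27 alone, 5.81 and 5.89 RPKM with OHT alone and 7.15 and 7.90 RPKM with DMSO, on 10 to 21 reads. Mir421, the only gene below the sum, had 2 and 2 reads with Y27 + OHT, 4 and 5 with Y27, 5 and 7 with OHT and 4 and 5 with DMSO. Mir875, Mir26a-2 and AF357355 averaged under 2 RPKM in every group, AF357355 on 2 and 1 reads with Y27 + OHT and 0 reads in the 6 other libraries. Mir26a-2 was listed at 0 in all Y27 and OHT libraries and at 0.445 and 0.421 RPKM with DMSO. For Mir26a-2 and Mir875, as for Ackr4, the sum of the single changes (-1.04 and -1.61) was a larger fall than the DMSO level allows on this scale, so that a departure above the sum had to follow.

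**Figure D4:**
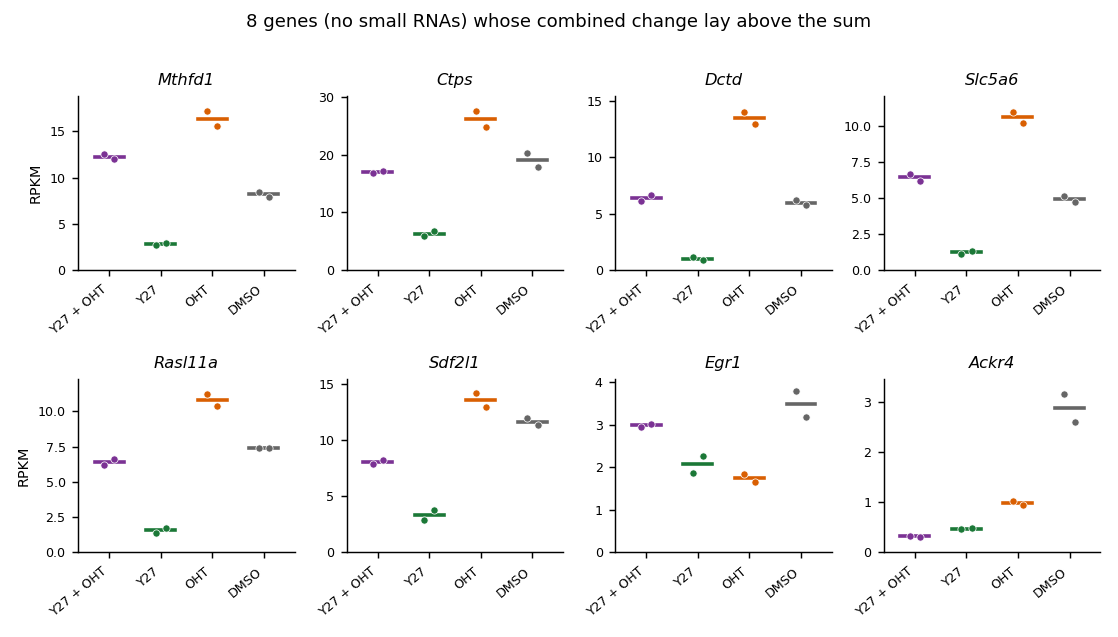
Level in RPKM of 8 genes called above the sum of the single changes, with a point for each of the 2 libraries of a group and a line at the group mean. Mthfd1, Ctps, Dctd, Slc5a6, Rasl11a and Sdf2l1 were lowest with Y27 and highest with OHT, Egr1 was lower with either agent than with both, and Ackr4 was near 0 in the combination.

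Beside these, most genes named above showed no called departure, with intervals that bound its size. For Klf4 the departure was 0.18 (-0.14 to 0.51 as a 95% interval), for Srf 0.09 (-0.26 to 0.44), for Ncl -0.05 (-0.28 to 0.19) and for Polr3g 0.05 (-0.24 to 0.35). For Ifrd2 it was 0.52 (0.30 to 0.74), for St6galnac4 -0.66 (-0.95 to -0.37), for Smoc1 -0.79 (-1.12 to -0.46) and for Dlk2 -0.61 (-0.92 to -0.29), intervals that leave out 0 although the adjusted p-values, 0.116, 0.138, 0.109 and 0.258 in this order, did not pass. A p-value that misses the threshold does not show that these genes followed the sum.

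Read in the presence of the inhibitor, as Y27 + OHT minus Y27, OHT moved 3053 genes (27.7%), 1986 higher (18%) and 1067 lower (9.68%). Of the ribosome biogenesis genes 60 of 63 were higher in that comparison and none lower, with a median of 0.71, and of the nucleotide and one-carbon genes 23 of 34 were higher and 1 lower (median 0.60). Read in the presence of OHT, as Y27 + OHT minus OHT, the inhibitor moved 4378 genes (39.7%), 1023 higher (9.28%) and 3355 lower (30.4%), among them 15 of 25 targets of YAP and TEAD, with 4 higher. These comparisons were added after the values were seen.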

How the data were processed

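Total RNA of 3T9MycER fibroblasts was sequenced without poly-T selection. The authors aligned reads to mm9 with TopHat2 2.0.8 and counted them per gene with featureCounts 1.4.5-p1 (submitters' processing notes), and deposited RPKM values, that is reads divided by gene length and library total. The use of strand in counting and the treatment of duplicates are not given in the sources used here. The deposited comparison tables hold mean counts, log2 fold changes and p-values that the authors made with DESeq2. Their fold changes and p-values were not used, and the RPKM columns of the remaining samples of the series entered the restoration but no test.

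Among the deposited RPKM values 120733 of 260052 (46.4%), all of 1 or more, had lost the decimal sign. The sign was placed where reads, gene length and library total became whole numbers together, from an intact value of the same gene (2023 genes), from whole reads (8022) or from whole reads and the annotated length (920), and 10646 genes were intact. Digits of the mean counts in 3 tables, within 1e-06 on the log10 scale, matched for 10943 of 10965 restored genes, 19 more were settled from those digits, and 3 differed by a shared factor in reads. A shift of a whole gene by a factor of 10 would escape this check. It would alter the gene's level and, on the log2(RPKM + 1) scale, its changes, most at low levels. Left out were 27 symbols turned into dates and 33 genes without a length. The library totals and read numbers in the text are those that this restoration implies.

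The test, two-sided, was that of limma (version 3.58.1, under R 4.3.3) for values taken as log2(RPKM + 1), over 8 libraries in 4 groups with one pooled spread (4 residual degrees of freedom, prior 8.33), with a mean-variance trend and Benjamini-Hochberg adjustment over 11024 genes, threshold 0.05. A count model was not used because the deposited unit is RPKM. The departure is the combined change minus both single changes. Errors after ± are standard errors, and replicate values are printed for many but not all of the named genes. Deviations of same-numbered libraries correlated at -0.141 to 0.298, highest between OHT and DMSO. With 2 libraries a group this cannot settle whether replicate numbers pair the libraries, and the main fit used no block. Alternatives were a pseudocount of 0.1, other minimum levels, median-ratio and quantile scaling, the replicate block, no variance trend, a fit on 4 libraries, genes whose sign needed no annotated length, and each library left out.

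Named genes were the 12 largest called changes in each direction with no overlap between groups and a mean of at least 2 RPKM in the higher group, up to 8 called departures in each direction of at least 2 RPKM, fixed anchors (Myc, Yap1, Wwtr1, Rock1, Rock2, Ctgf, Cyr61, Ankrd1, Ncl, Odc1, Ccnd1, Ccne1, Cdkn1a, Cdkn1b, Srf, Acta2, Actb and Vim), and from each list up to 4 members by combined change and 2 by departure. Slc5a6, Mirlet7a-1, Mir875, Mir26a-2 and AF357355, called departures outside this rule, and some list members were named after their values were seen. The genes, lists and tests were chosen with earlier results of these data known. Some members of the lists are not reported here.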

Additional observations from a re-analysis of the deposited data

Results flagged for a closer look

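For 14 genes the effect of one agent differed with the other present, by the test of the departure from the sum (limma, adjusted p under 0.05). Among genes that are no microRNA or small nucleolar RNA, the departures were 1.09 for Egr1, 1.04 for Rasl11a, 0.871 for Mthfd1, 0.864 for Sdf2l1, 0.864 for Ctps, 0.837 for Dctd, 0.811 for Ackr4 and 0.76 for Slc5a6 on the log2(RPKM + 1) scale. Among microRNA and small nucleolar RNA loci they were 1.88 for Mir875, 1.29 for Mir26a-2, 1.07 for AF357355, 0.847 for Snord52, 0.747 for Mirlet7a-1 and -1.1 for Mir421. None of the 14 was called when DMSO replicate 1 was left out. Of the settings that tested them, Rasl11a, Mthfd1 and Egr1 were called in 15 of 17, and Ackr4 in 6 of 16. For Ackr4, Mir875 and Mir26a-2 the sum of the single changes was a larger fall than the DMSO level allows on the log2(RPKM + 1) scale.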

How the results depend on the processing

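For single genes the combined change kept its direction for every shared call in all settings run, with 3877 to 5332 of the 5362 calls shared and none of opposite sign. Its higher calls numbered 1415 to 2459 when single libraries were left out, 1415 without DMSO replicate 2 and 1553 without Y27 + OHT replicate 1. Which direction held more calls turned with quantile scaling (3287 higher and 2964 lower) and without DMSO replicate 1 (2162 higher and 2127 lower). The 14 departures became 29 (27 above, 2 below) with a pseudocount of 0.1 and 5 (3 above, 2 below) with no minimum level. Departures below the sum numbered 0 at a minimum of 2 RPKM, 4 with quantile scaling and 2 with the replicate block. With single libraries left out, departures numbered 0 to 42 (0 to 39 above, 0 to 5 below), 0 without DMSO replicate 1, 7 without DMSO replicate 2, 8 without Y27 + OHT replicate 2, 42 without OHT replicate 1 and 24 without OHT replicate 2. Genes higher with Y27 alone numbered 2663 with median-ratio and 3140 with quantile scaling, and 1044 to 1786 with single libraries left out, 1044 without DMSO replicate 2 and 1133 without Y27 replicate 2. With OHT alone, lower genes numbered 1917 and 2249 with these scalings. With single libraries left out, OHT gave 1707 to 3395 calls (1153 to 2371 higher, 460 to 1025 lower), 1707 without DMSO replicate 2 and 2015 without OHT replicate 1. The main fit scaled libraries by their totals only. DMSO replicate 1 lay above DMSO replicate 2 by a median of 0.0846 on the log2(RPKM + 1) scale. The same median difference was 0.044 for Y27 + OHT, 0.041 for OHT and -0.0508 for Y27. The cause of the shifts in these counts, and the part of such differences in it, was not tested. Actb and Vim turned to -0.112 and -0.0642 with quantile scaling (adjusted p = 0.00934 and 0.0366). The replicate block gave 5306 combined calls (2322 higher, 2984 lower) and 20 departures (18 above), and whether its numbers pair the libraries is not known. Of 32 named genes called in combination, 28 kept call and sign in every setting that tested them, and Myc, Yap1, Rock1 and Cyr61 lost the call when certain single libraries were left out. Among the 32 were the 12 largest rises and the 12 largest falls, chosen by their calls in these same libraries. That those genes kept the call was largely set by the choice, and the genes that lost it were anchors. The medians of 12 lists, all within 0.1 of 0, changed sign in some setting. With 2 libraries a group the departure is held to about 0.28 either side for the median gene, and a leave-out fit assumes that the lone library varies like the other groups.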

Other observations

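Of 25 targets of NRF2, the regulator of antioxidant genes, 9 were lower and 3 higher (36% and 12%, against 27.4% and 21.3% over all genes). Nqo1, a quinone reductase, had 0.460 and 0.584 RPKM with Y27 + OHT, 0.855 and 0.821 RPKM with Y27 alone, 1.54 and 1.18 RPKM with OHT alone and 2.74 and 2.51 RPKM with DMSO, and Hmox1, heme oxygenase 1, changed by -1.31. Gclc, of glutathione synthesis, had 9.87 and 10.7 RPKM with Y27 + OHT, 3.68 and 3.76 RPKM with Y27 alone, 13.5 and 12.1 RPKM with OHT alone and 7.55 and 5.64 RPKM with DMSO, and was thus the exception among these, with 0.58. Of 23 targets of ATF4, the factor of amino acid stress, 8 were lower (5 without Y27 + OHT replicate 2) and 6 higher (2 higher without Y27 + OHT replicate 1 and 1 without DMSO replicate 2). The ATF4 list's shares of 34.8% lower and 26.1% higher stood beside 27.4% and 21.3% over all genes. Chac1, a glutathione-degrading enzyme, changed by -1.44 and Trib3, a pseudokinase, by -0.98, whereas Ddit4, an inhibitor of mTORC1, rose by 0.92. Slc7a5, the large neutral amino acid carrier, had 14.9 and 13.7 RPKM with Y27 + OHT, 4.13 and 5.40 RPKM with Y27 alone, 19.3 and 14.5 RPKM with OHT alone and 12.2 and 9.79 RPKM with DMSO, so that its single changes of -1.06 and 0.57 stood beside 0.36 in combination. In the unfolded protein response 8 of 24 were lower (13 with quantile scaling) and none higher, led by Creld2 (-1.06) and Xbp1 (-0.60). The share of lower genes was 33.3%, against 27.4% over all genes, and the list median was -0.05. Of 22 p53 targets 6 were lower and 5 higher, close to the shares over all genes (27.4% and 21.3%). Trp53inp2, an autophagy factor, fell in combination (-0.88) and with OHT alone (-1.10), and Aen, an exonuclease, rose by 0.72.

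Of 18 circadian clock genes 8 were higher and 1 lower (median 0.23). Arntl, which encodes the activator BMAL1, had 0.380 and 0.282 RPKM with Y27 + OHT, 1.70 and 1.71 RPKM with Y27 alone, 0.255 and 0.379 RPKM with OHT alone and 1.28 and 1.05 RPKM with DMSO. Nr1d1, the repressor REV-ERB alpha that acts on Arntl, had 4.75 and 3.97 RPKM with Y27 + OHT, 1.25 and 1.17 RPKM with Y27 alone, 6.46 and 5.46 RPKM with OHT alone and 1.78 and 2.11 RPKM with DMSO. Arntl was thus lower and Nr1d1 higher wherever OHT was present than in DMSO. Bhlhe40, another repressor, rose by 1.08, beside 1.17 with Y27 alone and 0.06, not called, with OHT alone. In the network of Myc, Max and Mxd genes 10 of 17 were higher and 2 lower (median 0.29), among them Mnt, a partner of Max that opposes Myc (0.60), Mxi1 (0.53) and the ATPase genes Ruvbl1 and Ruvbl2 (0.52 and 0.55). Of 20 Wnt, Notch and Hedgehog genes 5 were higher and 6 lower, with Wnt9a at -0.75 and Jag1, a Notch ligand, at -0.56. These counts were close to the shares over all genes (21.3% and 27.4%). For the histone genes named next, the shares were 11.1% in each direction. Of 54 replication-dependent histone genes, whose mRNAs largely lack poly(A) tails and stem from near-identical copies that counting may not separate, 6 were higher (3 without Y27 + OHT replicate 2 and 1 without DMSO replicate 2) and 6 lower, with Hist1h1a at -0.53.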
